A study of Sus scrofa with 48 samples.

Results

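The ileum and the hypothalamus of the older weaned piglets (Sus scrofa) were compared by polyA RNA-seq at the later sampling, day 39. All 12 ileum libraries and all 12 hypothalamus libraries labelled day 39 were used, 24 of the 48 libraries of the series, with the growth groups of each tissue pooled. Each tissue held 6 low growth and 6 high growth libraries, the class being set by average daily weight gain over the 39 days. The other 24 libraries, 12 per tissue with growth classed over 7 days, came from the earlier sampling and served only as the reference for what differs at the older day. The labels give no genotype, drug or diet by which the groups differ. They also give no age, sex, breed, litter or pen, and they tie no ileum library to a hypothalamus library of the same piglet, so p-values measure the spread between these libraries.

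The ileum is the last stretch of the small intestine. Its enterocytes finish the uptake of fats, peptides and sugars and take conjugated bile acids back from the lumen, and in pigs its wall carries a long Peyer's patch, a lymphoid organ rich in B cell follicles, above layers of smooth muscle and a nerve plexus of its own. The hypothalamus is the part of the brain that sets feeding, growth, water balance, reproduction and stress hormones. It does so through small groups of peptide-releasing neurons, held among astrocytes, myelinated axons and the tanycytes and ciliated cells that line the ventricle. Because these are whole tissue pieces, fewer cells of a type and less RNA per cell cannot be told apart in any value given here.

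Library totals on day 39 were 15247887 to 23157160 estimated counts in ileum (mean 17355954 ± 2247665, SD, n = 12) and 14168558 to 21122613 in hypothalamus (16828406 ± 2027907, n = 12). Levels are given as CPM (estimated counts per 1000000) after TMM scaling, and differences as the log2 ratio of ileum to hypothalamus with its standard error (SE), so positive values mean higher in ileum. Across the 24 day 39 libraries, the first principal component held 82.7% of the variance and separated the tissues, and Spearman correlations were 0.916 to 0.986 within a tissue against 0.767 to 0.827 between tissues.

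Both labels were met by the defining genes of the tissue, except that hypothalamus low growth replicate 3 lacked some of them. Low growth replicate 1 departed in part. Hypothalamus low growth replicate 3 had 0.729 CPM of GAD1, the enzyme that makes GABA, where the 10 libraries other than it and low growth replicate 1 had 41.7 to 322 CPM. It had 0 CPM of OTP, a transcription factor of hypothalamic neuroendocrine cells, against 0.125 to 52.5 CPM, and 175 CPM of the myelin gene MBP against 3925 to 87160 CPM in those 10. Conversely it held 1576 CPM of ASMT, the last enzyme of melatonin synthesis, against 0.125 to 3.85 CPM, and 923 CPM of the G protein subunit GNB3 against 0.202 to 1.45 CPM. Low growth replicate 1 had GAD1 and OTP within the range of those 10, at 86.7 and 19.1 CPM, but less MBP, at 915 CPM. It also held 3613 CPM of CGA, the shared subunit of the pituitary glycoprotein hormones, against 0.0598 to 4.63 CPM, and 78.1 CPM of the epithelial adhesion gene EPCAM against 0.325 to 4.54 CPM. Not every hypothalamic list was low in low growth replicate 3. Its summed level of neuronal and synaptic genes was 11710 CPM, against 2604 to 11820 CPM in the other 11 hypothalamus libraries. For hypothalamic transcription factors the sum was 380 CPM, against 305 to 747 CPM. The part of low growth replicates 1 and 3 in the results was not tested beyond leaving them out. Values without low growth replicate 3, the more divergent library, stand beside the counts over all genes and some list counts. List counts given alone are of all libraries and may differ without it.

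Most genes differed between the tissues. Of 16976 genes tested with edgeR's quasi-likelihood F test, 13412 (79.0%) passed a Benjamini-Hochberg adjusted p of 0.05, 6423 (37.8%) higher in ileum and 6989 (41.2%) higher in hypothalamus. A stricter test that asks for more than a 2-fold difference (edgeR's glmTreat) called 7641 genes (45.0%), of which 3292 (19.4%) were higher in ileum and 4349 (25.6%) higher in hypothalamus. Every library of one tissue lay above every library of the other for 7257 genes (42.7%), 3673 (21.6%) with ileum above and 3584 (21.1%) with hypothalamus above. Without hypothalamus low growth replicate 3 the first test called 13455 of 17109 genes (78.6%) and the stricter test 7744 (45.3%), 3404 (19.9%) for ileum and 4340 (25.4%) for hypothalamus, and 7492 of the 7744 were among the 7641. The median log2 difference over all genes was -0.09, and 1264 genes were more than 8-fold higher in ileum against 2021 more than 8-fold higher in hypothalamus. In the rest of the text, a gene called higher in a tissue passed the stricter test unless said otherwise. The shares over all genes, 19.4% for ileum and 25.6% for hypothalamus, are the reference for the counts of each list. Counts near these shares do not set a list apart from genes at large.

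**Figure D1:**
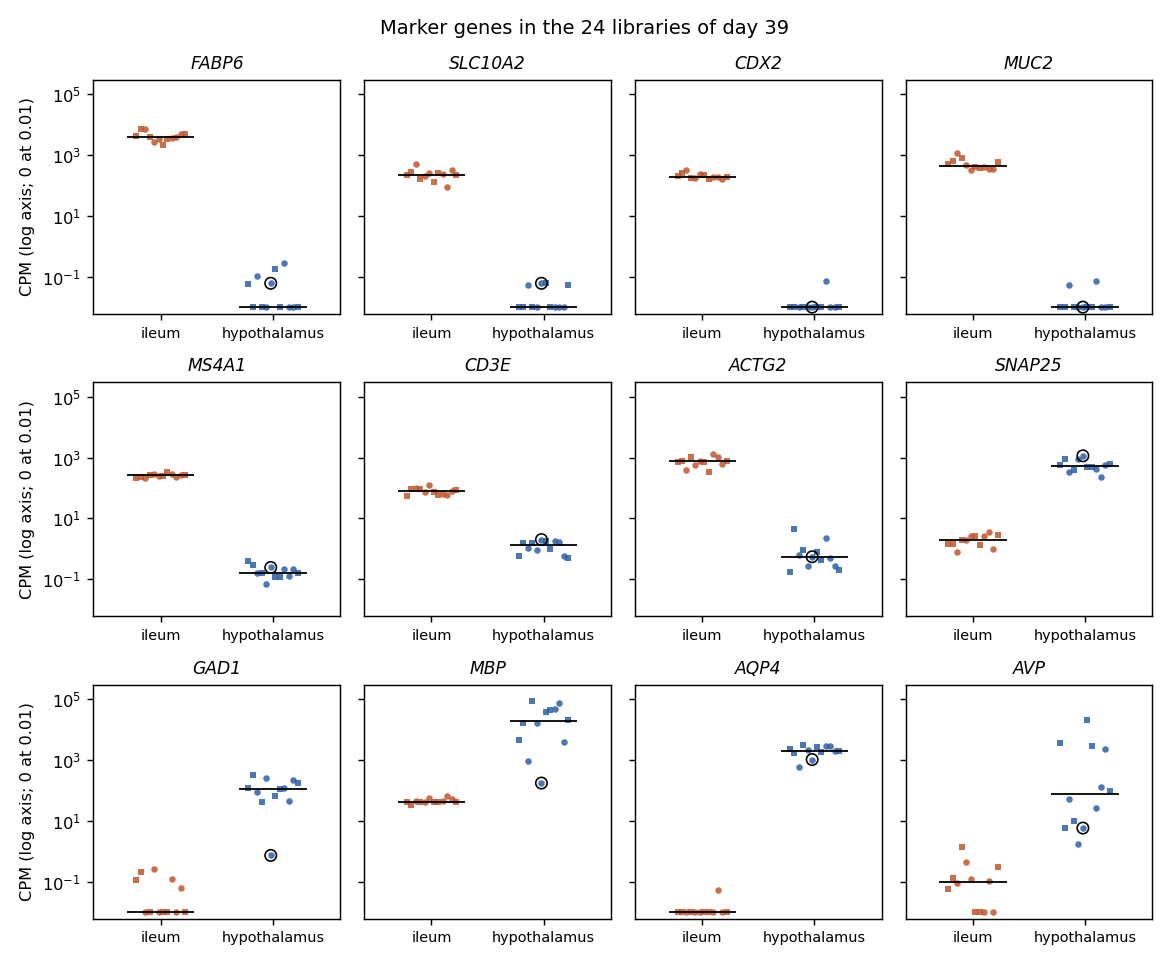
Levels of 12 genes that define cell types of the tissues, in every day 39 library (CPM, log axis, 0 drawn at 0.01). Ileum is orange and hypothalamus blue, circles are low growth and squares high growth, the bar is the median of the 12 libraries, and an open ring marks hypothalamus low growth replicate 3, which is low for GAD1 and MBP.

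The genes that stood highest over hypothalamus belong to the absorptive lining and its bile acid circuit. FABP6 (ENSSSCG00000017037, chr16:63297594-63303675 in Sscrofa11.1), the ileal protein that carries bile acids through the cell, was at 2212 to 7138 CPM (median 3911) in ileum and at 0 to 0.287 CPM (median 0) in hypothalamus. Every ileum library lay far above every hypothalamus library, by 14.59 ± 0.45 on the log2 scale (edgeR glmTreat, adjusted p = 3.39e-29). SLC10A2, the apical transporter that brings bile acids in, was at 92.2 to 504 CPM (median 229) against 0 to 0.0609 CPM (median 0), a difference of 10.75 ± 0.39. The exporter pair that passes them on to the blood was as clearly divided: SLC51B was at 179 to 510 CPM (median 248) in ileum and 0.729 to 1.98 CPM (median 1.35) in hypothalamus, and the log2 difference of its partner SLC51A was 10.09. NR1H4, the nuclear receptor that senses bile acids, was at 78.8 to 220 CPM (median 129) in ileum, with a difference of 9.48 ± 0.30. FGF19, the hormone by which the ileum reports bile acids to the liver, was low in both tissues, at 0.385 to 10.8 CPM (median 2.59) against 0 to 0.582 CPM (median 0), with overlap of the extreme libraries, and higher in ileum by 4.35 ± 0.81. Of 12 bile acid handling genes tested, 9 were higher in ileum beyond 2-fold and none in hypothalamus, with a median of 4.87 against -0.09 for all genes. SLC10A1, the bile acid importer best known from hepatocytes, was on the hypothalamic side at -0.83 ± 0.19 and passed only the test without a fold requirement.

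Digestive enzymes and structural genes of the microvilli followed the same division. VIL1, which bundles the actin of microvilli, was at 750 to 1625 CPM (median 1034) in ileum and 0 to 0.119 CPM (median 0.0556) in hypothalamus, 12.65 ± 0.30 on the log2 scale. The aminopeptidase ANPEP was at 2753 to 5180 CPM (median 3959) against 2.44 to 28 CPM (median 3.57), with no overlap between tissues, and the sucrase gene SI differed by 10.14 ± 0.37. FABP2, the intestinal fatty acid binding protein, was at 310 to 1581 CPM (median 715) in ileum. In all, 21 of 23 brush border genes tested were higher in ileum beyond 2-fold and none in hypothalamus, at a median of 7.84. The apolipoproteins of the chylomicron had almost no hypothalamic reads: APOB was at 174 to 726 CPM (median 463) in ileum and had 1 to 3 counts over all hypothalamus libraries, a ratio of 46140 (95% interval 12770 to 381000, counting error only). APOA4 was at 153 to 1991 CPM (median 334) with a ratio of 51020 (14120 to 421300). MTTP, which loads lipid onto APOB, differed by 7.77 ± 0.30 and the cholesterol importer NPC1L1 by 6.83 ± 0.26. Lipid absorption genes were higher in ileum for 18 of 23 tested, with a median of 5.57.

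Carriers of nutrients were less uniform. Of 36 tested, 23 were higher in ileum and 1 in hypothalamus beyond 2-fold, at a median of 3.17. The sodium-glucose carrier SLC5A1 differed by 9.14 ± 0.31, the peptide carrier SLC15A1 by 9.06 ± 0.31 and the cystine carrier subunit SLC7A9 by 7.88 ± 0.30. SLC6A19, the main carrier of neutral amino acids in the gut, had 0 counts in every hypothalamus library and was at least 20500-fold higher in ileum against a floor of 3 counts over the 12 libraries. The carrier on the hypothalamic side was the folate transporter SLC46A1, at -1.48 ± 0.22.

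Transcription factors of gut identity were among the sharpest divides. CDX2, which sets intestinal fate, was at 164 to 330 CPM (median 186) in ileum and had 1 to 3 counts in all hypothalamus libraries together, a ratio of 42030 (7543 to 1660000). HNF4G, a regulator of enterocyte genes, differed by 8.82 ± 0.33 and the epithelial factor ELF3 by 8.0 ± 0.42. HNF4A differed by 9.11 ± 0.55, and by 10.55 without hypothalamus low growth replicate 3, which held 5.47 CPM against 0 to 0.325 in the 10 libraries other than it and low growth replicate 1. Of 25 such factors tested, 24 were higher in ileum and none in hypothalamus, at a median of 4.31. The remaining one was PPARA, the fatty acid receptor, whose difference of 0.50 had an adjusted p of 0.0719 in the quasi-likelihood test, and 0.0414 and 0.0297 without ileum high growth replicates 2 and 3 respectively.

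Mucus and epithelial contact genes were concentrated in ileum. MUC2, the gel-forming mucin of goblet cells, was at 328 to 1193 CPM (median 444) with a ratio of 55580 (15380 to 458900), and the membrane mucin MUC13 had 0 counts in every hypothalamus library, which makes it at least 26900-fold higher in ileum. TFF3, a trefoil peptide that helps mucosal repair, differed by 10.77 ± 0.42. Goblet genes were higher in ileum for 13 of 14 tested, and the last, BCAS1, known also from oligodendrocytes, was higher in hypothalamus at -6.07 ± 0.47. Epithelial junction genes were higher in ileum for 22 of 26 and in hypothalamus for none, at a median of 4.73. PIGR, which carries IgA across the epithelium, differed by 8.62 ± 0.49, and OLFM4, a marker of crypt base cells, by 10.20 ± 0.41. Defence genes linked to Paneth cells split: 7 of 18 (9 without hypothalamus low growth replicate 3) were higher in ileum and 4 in hypothalamus. Among the latter was LYZ, at 0 to 0.321 CPM (median 0) in ileum and 19.4 to 42.5 CPM (median 27.3) in hypothalamus. LGR5, the stem cell receptor, gave -0.40 with an adjusted p of 0.268.

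Immune genes made up the other large block of the ileum. MS4A1, the B cell antigen CD20, differed by 9.70 ± 0.48 and SPIB, a factor of B cells and of the epithelium over Peyer's patches, by 11.55 ± 0.47. JCHAIN, the chain that joins secreted IgA, was at 474 to 1472 CPM (median 674) in ileum and 3.41 to 15.1 CPM (median 5.81) in hypothalamus. Every ileum library was thus above every hypothalamus library for JCHAIN, and 30 of 33 B cell, plasma cell and germinal centre genes were higher in ileum, at a median of 5.66. CD38, which brain cells also use to make signalling nucleotides, was the exception at -1.86 ± 0.25.

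CD3E, part of the antigen receptor complex of T cells, was at 56.4 to 127 CPM (median 77.6) in ileum against 0.516 to 2 CPM (median 1.29), and the T cell kinase LCK differed by 7.01 ± 0.29. T cell genes were higher in ileum for 32 of 36 and in hypothalamus for 1, LEF1, at -1.83 ± 0.28. FOXP3, the factor of regulatory T cells, was 0.28 with an adjusted p of 0.31. Of 28 genes of cytotoxic and intraepithelial lymphocytes, 23 were higher in ileum and none in hypothalamus. They included CCR9, the gut-homing receptor, at 4.61 ± 0.31, and the granzyme GZMH at 5.58 ± 0.30. CCL25, the ligand of CCR9 made by small intestinal epithelium, was at 274 to 603 CPM (median 377) in ileum and 3.55 to 17.7 CPM (median 6.66) in hypothalamus. Chemokine, interleukin and receptor genes were higher in ileum for 26 of 36 and higher in hypothalamus for 1.

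Genes of antigen presentation were readily measured in both tissues. CD74, the invariant chain of class II molecules, was at 2852 to 8654 CPM (median 3729) in ileum and 284 to 542 CPM (median 389) in hypothalamus, a difference of 3.45 ± 0.22. Of 22 genes in that list 21 were higher in ileum, at a median of 2.81; class I and II genes have close copies among which estimated counts can be shared, so single members are uncertain. Interferon-stimulated genes were higher in ileum for 23 of 35 and in hypothalamus for none, at a median of 2.12, with 6.38 ± 0.61 for the antiviral gene OASL. Microglia and macrophage genes were divided. CD163, a scavenger receptor of tissue macrophages, was higher in ileum at 3.24 ± 0.42, whereas the microglial receptors P2RY12, CX3CR1 and TREM2 were higher in hypothalamus at -5.29, -5.38 and -6.33, and the list gave 7 genes for ileum and 5 for hypothalamus out of 19.

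**Figure D2:**
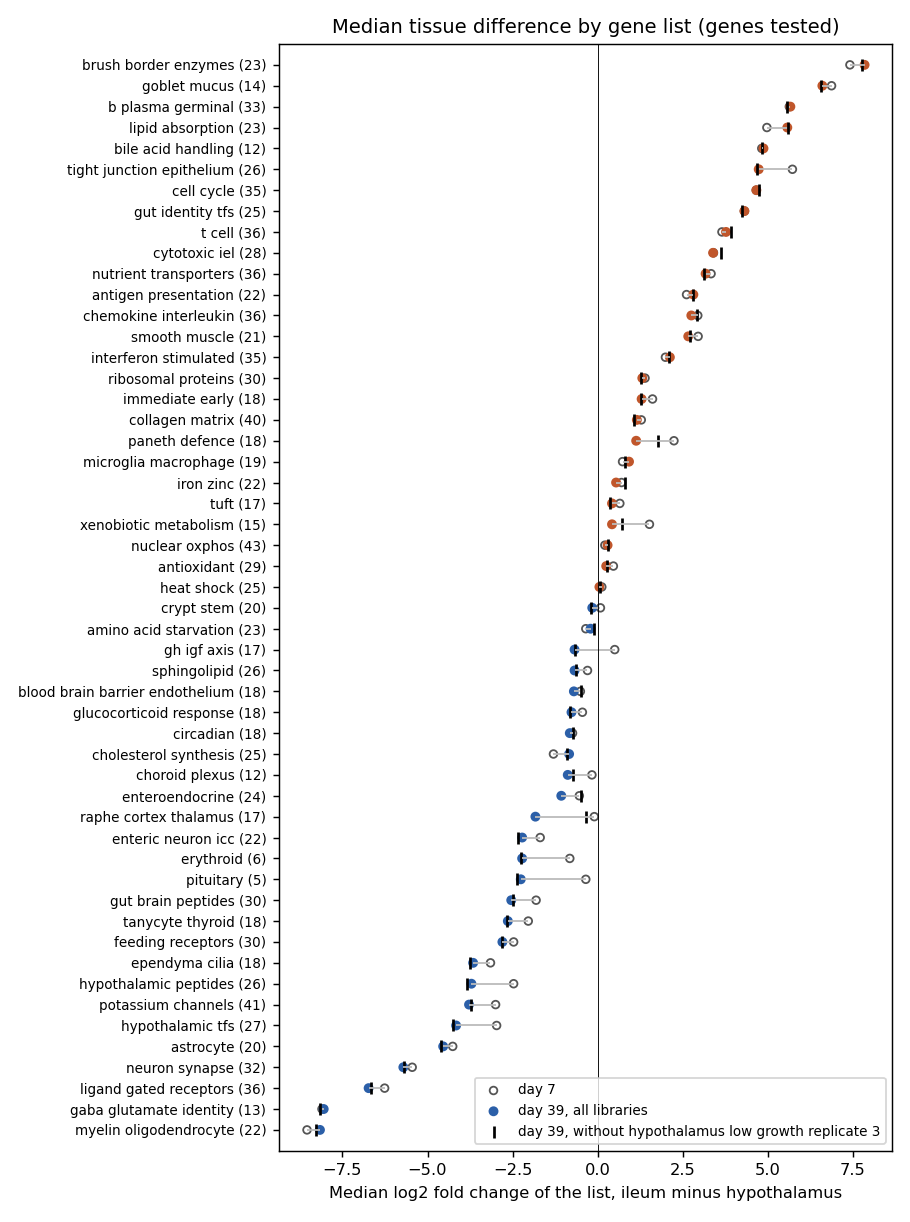
Median log2 difference between ileum and hypothalamus of each gene list, on day 39 (filled points) and on day 7 (open points), with a tick for day 39 without hypothalamus low growth replicate 3. Brush border, B cell and cell division lists lie on the ileum side and ligand-gated receptor, synapse and myelin lists on the hypothalamus side, on both days.

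Muscle and dividing cells added to the ileal profile. ACTG2, the enteric smooth muscle actin, was at 326 to 1283 CPM (median 743) in ileum and 0.174 to 4.34 CPM (median 0.522) in hypothalamus, and the filament protein DES differed by 6.21 ± 0.37. Smooth muscle genes were higher in ileum for 19 of 21. Cell division genes were higher in ileum for 34 of 35 and in hypothalamus for none, at a median of 4.66, among them the helicase subunit MCM3 at 4.66 ± 0.20 and the mitotic kinase PLK1 at 4.83 ± 0.18. Cytosolic ribosomal protein genes all lay on the ileum side: 30 of 30 passed the test without a fold requirement, at a median of 1.31. Beyond 2-fold 18 passed, and 16 without hypothalamus low growth replicate 3, although processed copies make single members uncertain. Collagen and matrix genes were mixed, 20 higher in ileum and 11 in hypothalamus out of 40. COL3A1, a fibrillar collagen, differed by 3.67 ± 0.49, and by 5.0 with both hypothalamus low growth replicates 1 and 3 left out, where they held 1093 and 356 CPM against 28.6 to 255 in the other 10. On the hypothalamic side stood the perineuronal matrix genes BCAN at -8.43 ± 0.32 and TNR at -8.02 ± 0.34.

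In hypothalamus, every tested gene of the neuronal and synaptic list was higher, 32 of 32, at a median of -5.71. SNAP25, a part of the machine that fuses synaptic vesicles, was at 226 to 1138 CPM (median 535) in hypothalamus and 0.803 to 3.46 CPM (median 1.92) in ileum, -8.13 ± 0.37 on the log2 scale. The neurofilament NEFL differed by -5.66 ± 0.26 and the axonal protein MAPT by -5.51 ± 0.22. Ligand-gated receptors gave 36 of 36, at a median of -6.73, including the AMPA receptor subunit GRIA1 at -7.29 ± 0.33. Genes that define inhibitory and excitatory neurons were higher in hypothalamus for 10 of 13 (9 without hypothalamus low growth replicate 3) and in ileum for 1. GAD1 differed by -9.50 ± 0.69 and the vesicle carrier of GABA, SLC32A1, by -8.50 ± 0.64. SLC17A6, the vesicular glutamate carrier of hypothalamic neurons, was at 5.72 to 182 CPM (median 57.6) and had 0 counts in every ileum library, at least 4934-fold lower there. Potassium channels were higher in hypothalamus for 32 of 41, such as KCND2 at -6.44 ± 0.42, and in ileum for 6. KCNN4, a calcium-activated channel of lymphocytes and epithelia, was on the ileum side at 6.77 ± 0.36.

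Most hypothalamic neuropeptides were higher in hypothalamus, with wide ranges between libraries. AVP (vasopressin, the antidiuretic hormone) was at 1.75 to 20590 CPM (median 74.1) in hypothalamus and 0 to 1.41 CPM (median 0.0962) in ileum. The lowest hypothalamus library was only just above the highest ileum library, and the difference of -12.02 ± 1.5 carried a large error. OXT, which makes oxytocin, was at 0.471 to 3332 CPM (median 140) in hypothalamus with at most a few ileal counts in all, a ratio of 151900 (27270 to 6001000, counting error only). The orexin gene HCRT, which sustains wakefulness and feeding, differed by -3.92 ± 0.66 and AGRP, the peptide of hunger neurons, by -3.83 ± 0.75. PMCH, which makes melanin-concentrating hormone, differed by -5.36 ± 0.83 and CRH, the hormone at the head of the stress axis, by -5.23 ± 0.81. With limma's voom, HCRT (-2.38, adjusted p = 0.108), AGRP (-2.98, 0.0681) and PMCH (-2.54, 0.158) did not pass beyond 2-fold. Of 26 such genes tested, 19 were higher in hypothalamus beyond 2-fold and 1 in ileum, at a median of -3.71. Without hypothalamus low growth replicate 3 these counts were 20 and 1 and the median -3.83. The summed level of the list ranged from 301 to 23080 CPM over the 12 hypothalamus libraries. Low growth replicates 5 and 4 held the least, 301 and 336.5 CPM, below the 343 CPM of low growth replicate 3. NPY, which drives food intake, was on the hypothalamic side at -1.68 ± 0.56 with an adjusted p of 0.00594 in the quasi-likelihood test but did not pass beyond 2-fold, and voom gave -0.72 (0.383). CCK and NTS, peptides used by both gut and brain, gave -0.35 and 0.27, with adjusted p values of 0.341 and 0.587.

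GCG, GIP and VIP ran the other way. GCG, which encodes glucagon and the GLP peptides of ileal L cells, was at 32 to 87.7 CPM (median 55.5) in ileum and 0 to 0.202 CPM (median 0) in hypothalamus, a difference of 8.67 ± 0.30. GIP, an incretin, had 0 counts in every hypothalamus library and was at least 193-fold higher in ileum. VIP, a relaxing transmitter of enteric neurons and of the brain clock, was at 4.28 to 21.1 CPM (median 9.61) in ileum against 0.124 to 5.24 CPM (median 0.661). The tissues overlapped for VIP in their extreme libraries, and the difference was 2.87 ± 0.41. Of 30 gut-brain peptides tested, 4 were higher in ileum and 20 in hypothalamus. Some calls turned on single libraries. SCT, which makes secretin, was -1.57, and -0.39 (adjusted p = 0.870 by glmTreat) without hypothalamus low growth replicate 3. It also missed the 2-fold test without hypothalamus high growth replicate 2 (-1.45), ileum high growth replicates 1 (-1.49) and 4 (-1.51) or ileum low growth replicates 3 (-1.53) and 5 (-1.52), and with DESeq2 (-2.03) and voom (-0.98), at adjusted p from 0.051 to 0.946. GAL was -1.94, and -1.62 without hypothalamus high growth replicate 6 (adjusted p = 0.0752 by glmTreat). GRP, the bombesin peptide, was -2.14, and -1.76 (0.0529) without hypothalamus low growth replicate 2. Vesicle and processing genes of hormone cells were on the hypothalamic side, with the prohormone convertases PCSK1 at -5.53 ± 0.60 and PCSK2 at -6.57 ± 0.41 and the granin SCG3 at -6.64 ± 0.18. CHGA, the granin shared by both kinds of cell, was -1.76, but -0.69 (adjusted p = 0.977 by glmTreat) without hypothalamus low growth replicate 1, which held 2215 CPM against 35.2 to 234 in the 10 libraries other than replicates 1 and 3.

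**Figure D3:**
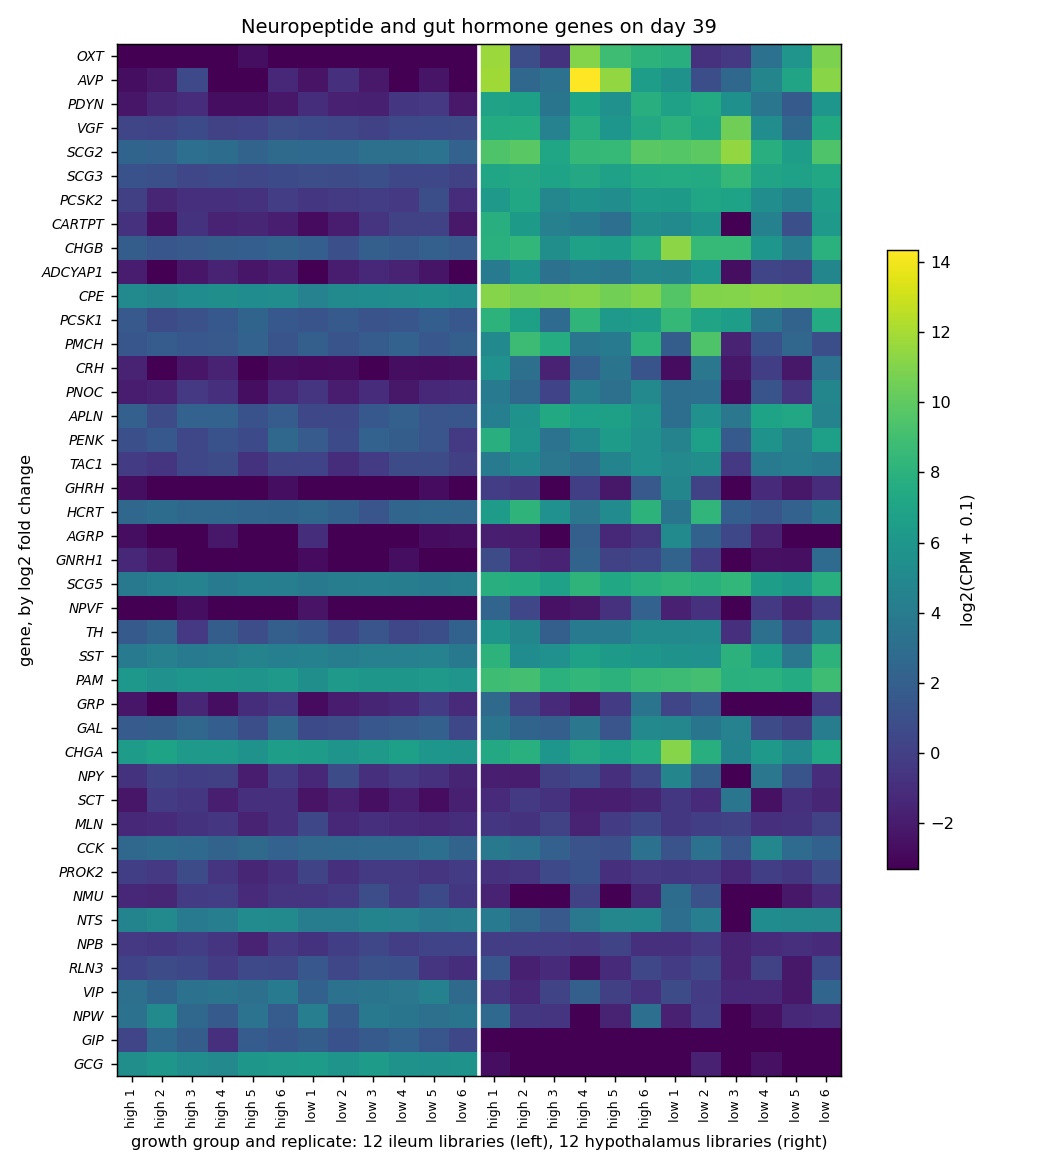
Heat map of log2(CPM + 0.1) of neuropeptide and gut hormone genes (rows) in the 24 day 39 libraries (columns, ileum and hypothalamus side by side). GCG and GIP are bright in ileum, most other genes are bright in hypothalamus, and AVP and OXT range widely between hypothalamus libraries.

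Receptors by which the brain reads feeding signals were mostly, not always, on the hypothalamic side, 19 of 30 against 4 for ileum. The orexin receptor HCRTR2 differed by -5.85 ± 0.53, and MC3R, a melanocortin receptor, had 0 counts in every ileum library, which makes it at least 67.1-fold lower there. CALCR, the calcitonin receptor, with its partner RAMP3 part of the amylin receptor, was at 29.6 to 1496 CPM (median 804) in hypothalamus against 0 to 0.19 CPM (median 0), -12.43 ± 0.50 on the log2 scale. GHSR, the ghrelin receptor, went the other way, at 97.4 to 409 CPM (median 166) in ileum and 28.3 to 65.8 CPM (median 38.5) in hypothalamus, with no overlap and a difference of 2.18 ± 0.27. The leptin receptor LEPR was -0.92 ± 0.26 and the GLP-1 receptor GLP1R -1.71 ± 0.60, both past the quasi-likelihood test (adjusted p = 0.00171 and 0.00854) and neither beyond 2-fold. With voom GLP1R was -1.30 (0.110).

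Hypothalamic transcription factors were higher in hypothalamus for 25 of 27 tested, at a median of -4.16. SIX3, an early forebrain factor, differed by -7.49 ± 0.56, NKX2-2, a ventral patterning factor, by -5.08 ± 0.32, and ARNT2, the partner of the neuroendocrine factor SIM1, by -6.26 ± 0.24. TBX3, which shapes arcuate peptide neurons and is used in many organs, was on the ileum side at 1.69 ± 0.38, a call that did not hold when growth was left out of the fit, when the older libraries were fitted alone or with DESeq2. FOXP2 had an adjusted p of 0.981.

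Glial genes were the other large part of the hypothalamic profile. MBP, a main protein of compact myelin, was at 175 to 87160 CPM (median 18880) in hypothalamus and 33.4 to 64.8 CPM (median 42.6) in ileum. The tissues did not overlap, and the difference was -9.30 ± 0.70. The oligodendrocyte factor OLIG1 differed by -9.68 ± 0.46, and 20 of 22 myelin and oligodendrocyte genes were higher in hypothalamus, none in ileum, at a median of -8.16. The summed level of that list was 831 CPM in hypothalamus low growth replicate 3 and 2743 CPM in low growth replicate 1, against 10360 to 166200 CPM in the other 10. High growth replicate 3 and low growth replicate 5 held the most, 166200 and 156500 CPM. They also held the least of the neuronal and synaptic list, 3874 and 2604 CPM, where the highest hypothalamus library held 11820 CPM. Astrocyte genes were higher in hypothalamus for 17 of 20 and in ileum for 1. GFAP, the astrocyte filament, was at 1611 to 13340 CPM (median 7240) in hypothalamus and 0.51 to 3.28 CPM (median 2.11) in ileum, where enteric glia are known to express it. AQP4, the water channel of astrocyte endfeet, had 1 to 3 ileal counts in all and a ratio of 431800 (77500 to 17050000).

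Of the ventricular and vascular lists, those of tanycytes and of the vascular barrier gave smaller shares. Ependymal cilia genes were higher in hypothalamus for 15 of 18, such as the dynein DNAH5 at -6.47 ± 0.46, and for 17 without low growth replicate 3. Tanycyte and thyroid hormone genes were higher there for 13 of 18 and in ileum for 1, with the thyroid hormone receptor THRA at -2.70 ± 0.18. The summed level of that list was 7771 CPM in low growth replicate 3 and 3172 CPM in low growth replicate 1, against 600 to 1067 CPM in the other 10. Of 18 genes of the vascular barrier, 4 were higher in ileum and 6 in hypothalamus, beside 19.4% and 25.6% of all genes. Among the 6 was the endothelial junction gene CLDN5 at -3.31 ± 0.25. The enteric nervous system list, built from genes that the brain also uses, gave 14 of 22 for hypothalamus and 4 for ileum. OTX2, a head and choroid plexus factor, differed by -7.38, and by -4.76 without low growth replicate 3.

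Related genes picked in pairs, 1 typical of gut and 1 of brain, often divided the tissues between them. Because the pairs were picked in this way, their counts do not speak for related genes at large. Of 28 pairs of a gut-typical and a brain-typical relative, both members of 25 were tested. In 12 pairs the gut member was higher in ileum and the brain member higher in hypothalamus, both beyond 2-fold. The fatty acid binding proteins FABP2 and FABP7 stood at 11.62 and -8.45 and the peptidase family members DPP4 and DPP6 at 8.79 and -6.42. The cadherins CDH1 and CDH2 stood at 4.66 and -4.84 and the splicing regulators PTBP1 and PTBP2 at 2.30 and -2.22. The brain member was higher in hypothalamus in 24 of 25 pairs, but the gut member was higher in ileum in only 13. In 6 of 25 pairs the gut-typical member itself was on the hypothalamic side in the quasi-likelihood test, beside 41.2% of all genes. Examples were the kinesin KIF5B at -0.77 ± 0.17 beside KIF5A at -6.22 ± 0.32, and the chloride carrier SLC12A2 at -1.36 ± 0.29 beside SLC12A5 at -7.96 ± 0.48. STX3, the syntaxin of apical membranes, was 0.45 with an adjusted p of 0.258, and 1.48 (1.21e-07) without hypothalamus low growth replicate 3.

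Other programmes that all cells share were divided or close to even. Nuclear genes of the respiratory chain were called for ileum in 22 and for hypothalamus in 9 of 43 by the quasi-likelihood test, but only 1 on each side passed beyond 2-fold, COX5A at 1.24 ± 0.09 and NDUFA5 at -1.44 ± 0.14. With DESeq2 COX5A did not pass (1.19, adjusted p = 0.119). Cholesterol synthesis genes leaned to hypothalamus, 9 of 25 beyond 2-fold and none in ileum, led by HMGCS1, which makes the first dedicated precursor, at -3.12 ± 0.31, and TM7SF2 at -3.85 ± 0.30. Clock genes were on the hypothalamic side for 15 of 18 in the quasi-likelihood test, beside 41.2% of all genes. Beyond 2-fold 5 of the 18 passed, near the 25.6% of all genes, with BHLHE41 at -3.15 ± 0.20 and HLF at -2.93 ± 0.20. Of 25 heat shock genes, the same test gave 8 for ileum and 9 for hypothalamus, beside 37.8% and 41.2% of all genes. Beyond 2-fold none passed for ileum and 5 for hypothalamus, beside 19.4% and 25.6% of all genes. Their median of 0.05 turned to -0.01 under DESeq2-type or upper-quartile scaling. A 95% interval of the difference within 0.3 log2 units of 0 was found for 288 genes. RNF10, a ubiquitin ligase gene, was one of these, at 226 to 272 CPM (median 253) in ileum and 211 to 276 CPM (median 244) in hypothalamus.

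Metal, lipid and stress lists split by member, beside 19.4% of all genes higher in ileum and 25.6% higher in hypothalamus. Of 22 iron and zinc genes, 7 were higher in ileum and 5 in hypothalamus, or 8 and 4 without hypothalamus low growth replicate 3. The zinc importers SLC39A4 and SLC39A5, the former the main route of zinc uptake in the gut, differed by 6.46 ± 0.36 and 7.93 ± 0.33, and MT3, the brain metallothionein, was at 127 to 520 CPM (median 356) in hypothalamus against 0.38 to 1.5 CPM (median 0.752) in ileum. Sphingolipid genes gave 4 for ileum and 8 for hypothalamus out of 26, or 6 and 7 without hypothalamus low growth replicate 3. On the hypothalamic side were the neuronal ceramide synthase CERS1 at -7.79 ± 0.35 and the ganglioside enzyme B4GALNT1 at -3.45 ± 0.19. Genes of foreign compound handling gave 7 and 5 of 15. The xenobiotic receptor NR1I2 was on the ileum side at 8.82 ± 0.26 and CYP46A1, which clears cholesterol from the brain, on the other at -7.68 ± 0.35. Antioxidant genes gave 8 and 5 of 29, with the gut glutathione peroxidase GPX2 at 8.69 ± 0.32 and the cystine exchanger SLC7A11 at -5.66 ± 0.41. Glucocorticoid response genes gave 6 on each side of 18, including HSD11B2, which inactivates cortisol in epithelia, at 5.11 ± 0.29. Immediate early genes gave 9 for ileum and 2 for hypothalamus of 18, and amino acid starvation genes 6 on each side of 23.

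Lists of rarer epithelial cells were split, beside the same shares of 19.4% and 25.6% over all genes. Tuft cell genes gave 7 for ileum and 4 for hypothalamus of 17. POU2F3, the factor that makes tuft cells, was at 27.4 to 47.3 CPM (median 37.8) in ileum and 0.135 to 0.717 CPM (median 0.493) in hypothalamus, whereas DCLK1, a tuft cell marker that neurons also express, was higher in hypothalamus at -5.25 ± 0.28. Crypt and stem cell genes gave 6 on each side of 20, with SMOC2, a stem cell gene of the crypt, at 6.01 ± 0.42. Enteroendocrine genes gave 6 for ileum and 12 for hypothalamus of 24. Without hypothalamus low growth replicate 3 they gave 6 and 10, and their median went from -1.07 to -0.48. NEUROG3, which commits crypt cells to the endocrine line, was low but above hypothalamus in every ileum library, at 0.634 to 1.64 CPM (median 1.08) against 0 to 0.365 CPM (median 0).

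The growth hormone axis was split between the tissues. GHRH, the releasing hormone, was at 0 to 27.5 CPM (median 0.483) in hypothalamus and had 3 ileal counts in all, a ratio of 228 (77.9 to 1104, counting error only), and low growth replicate 1 alone held 27.5 CPM against 0 to 2.99 CPM in the other 11. SST, the hormone that restrains growth hormone, and its receptor SSTR2 were higher in hypothalamus, at -2.55 ± 0.38 and -2.84 ± 0.34. The growth factor IGF1 was 1.12 ± 0.24 and its receptor IGF1R -0.95 ± 0.20, both past the quasi-likelihood test (adjusted p = 6.99e-05 and 3.25e-05) and neither beyond 2-fold. IGFBP4, a binding protein that holds IGF in tissue, was higher in ileum by 2.01 ± 0.23. GHR, the growth hormone receptor, was at 2.54 to 8.95 CPM (median 5.73) in ileum and 4.79 to 23.6 CPM (median 8.46) in hypothalamus on day 39, with overlap. Its difference was -0.68 ± 0.24 on day 39 and 0.50 ± 0.23 on day 7, each past the quasi-likelihood test, and the change between days had an adjusted p of 0.165 with edgeR and 0.0485 with DESeq2. Without hypothalamus low growth replicates 1 and 3 the day 39 difference was -0.44 (adjusted p = 0.0785). In all, 2 of 17 genes of the axis were higher in ileum and 6 in hypothalamus, beside 19.4% and 25.6% of all genes.

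The tissue difference of the older piglets was close to that of the younger ones. On day 7 the test without a fold requirement called 13512 genes (79.6%) and the stricter test 7679 (45.2%), 3452 (20.3%) for ileum and 4227 (24.9%) for hypothalamus, and 6868 genes passed on both days, all on the same side. Across genes, which are not independent replicates, the log2 differences of both days had a Pearson correlation of 0.981, and the median change from day 7 to day 39 was 0.27 log2 units in size. For 9474 genes (55.81%) the 95% interval of that change lay within 1 log2 unit of 0. A further 773 genes passed beyond 2-fold on day 39 and not on day 7, 261 for ileum and 512 for hypothalamus, and 662 of them did so without hypothalamus low growth replicate 3 as well. Their median size was 1.52 on day 39 and 1.06 on day 7, 679 of them passed the test without a fold requirement on day 7, and none passed the test of the change between days. On day 7 alone, 811 genes passed beyond 2-fold.

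**Figure D4:**
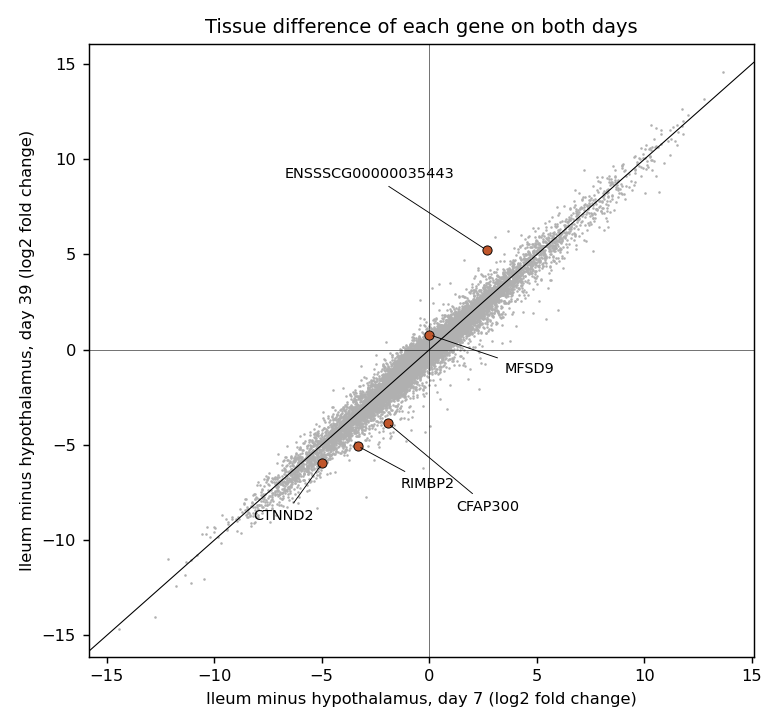
Log2 difference between ileum and hypothalamus on day 39 (vertical) against day 7 (horizontal) for 16976 genes, with the line of equality. The 5 labelled genes passed the test of the change between days, and the cloud follows the line with a Pearson correlation of 0.981.

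In the direct test of whether the tissue difference changed between days, 5 genes passed (0.0295%), 2 (0.0118%) toward ileum and 3 (0.0177%) toward hypothalamus, while 2268 had an unadjusted p under 0.05. Without hypothalamus low growth replicate 3, 6 of 17109 genes passed (0.0351%), 4 of them among the 5. The count was 26 without hypothalamus low growth replicate 5 and 9 without ileum low growth replicate 3. It was 3 without any one of ileum high growth replicates 2, 3 and 4 and low growth replicate 6, or of hypothalamus high growth replicates 1, 2, 3, 4 and 6 and low growth replicate 6. None of the 5 was a member of any gene list used here.

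CTNND2 (ENSSSCG00000016780, chr16:508630-1521773), which encodes delta-catenin, an adhesion protein of dendrites and synapses, was the clearest. It was at 2.01 to 4.8 CPM (median 3.42) in ileum on day 39 and 4.66 to 8.93 CPM (median 6.52) on day 7, while hypothalamus held 167 to 263 CPM (median 218) on day 39 and 138.8 to 252 CPM (median 216) on day 7. The ileum libraries of both days barely met and the hypothalamus libraries overlapped throughout. The tissue difference was -5.96 ± 0.14 on day 39 and -4.97 ± 0.14 on day 7, a change of -0.99 ± 0.16 (edgeR, adjusted p = 0.0051). It passed in all 24 fits that each left out 1 day 39 library, with changes of -1.02 to -0.94.

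RIMBP2 (ENSSSCG00000009748, chr14:24394793-24722237) encodes a scaffold that ties calcium channels to vesicle release sites. It was at 0.714 to 3.07 CPM (median 2.21) in ileum on day 39 against 2.48 to 9.5 CPM (median 4.83) on day 7, and in hypothalamus at 34.5 to 100 CPM (median 75.7) against 34.3 to 74.2 CPM (median 50.4). The older ileum libraries were low and the older hypothalamus libraries tended to be high, with overlap in both. The tissue difference went from -3.34 ± 0.23 to -5.05 ± 0.25, a change of -1.71 ± 0.30 (edgeR, adjusted p = 0.00823). It also passed in all 24 fits with a library left out, and missed the threshold with limma's voom (adjusted p = 0.0651).

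MFSD9 (ENSSSCG00000038714, chr3:51511400-51527651), a member of a large family of membrane carriers, was even between the tissues on day 7, at 20.8 to 36.4 CPM (median 27.3) in ileum and 21.2 to 35.3 CPM (median 28.1) in hypothalamus. On day 39 it was at 33 to 47.8 CPM (median 38.1) in ileum and 16 to 32.9 CPM (median 23.3) in hypothalamus, so that the lowest ileum library was above the highest hypothalamus library. The difference was -0.002 on day 7 and 0.79 ± 0.11 on day 39, a change of 0.79 ± 0.15 (edgeR, adjusted p = 0.0202), and it passed in all 24 fits with a library left out.

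The remaining 2 genes rested on low counts. ENSSSCG00000035443, which has no symbol, was at 2.22 to 10.2 CPM (median 3.91) in ileum on day 39 and 0.25 to 1.91 CPM (median 1.03) on day 7, with no overlap, and at most 0.179 CPM in any hypothalamus library. Its change of 2.56 ± 0.51 had an adjusted p of 0.0464 (edgeR), which became 0.0514 without hypothalamus low growth replicate 3 and passed in 12 of the 24 fits. CFAP300, a gene of ciliary dynein assembly, was at 0.0669 to 0.534 CPM (median 0.215) in ileum and 2.09 to 8.55 CPM (median 4.74) in hypothalamus on day 39 and at 0.181 to 1.31 CPM (median 0.505) and 1.08 to 6.36 CPM (median 2.27) on day 7. Its change was -1.91 ± 0.39 (edgeR, adjusted p = 0.0464), and it passed in 9 of the 24 fits. SPTLC3, singled out after its values were seen, is a subunit of the enzyme that starts sphingolipid synthesis. It missed the threshold with a change of -1.96 ± 0.41 (adjusted p = 0.0509) and passed without low growth replicate 3 (0.0202). Its tissue difference was 1.13 on day 7 and -0.83 on day 39.

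**Figure D5:**
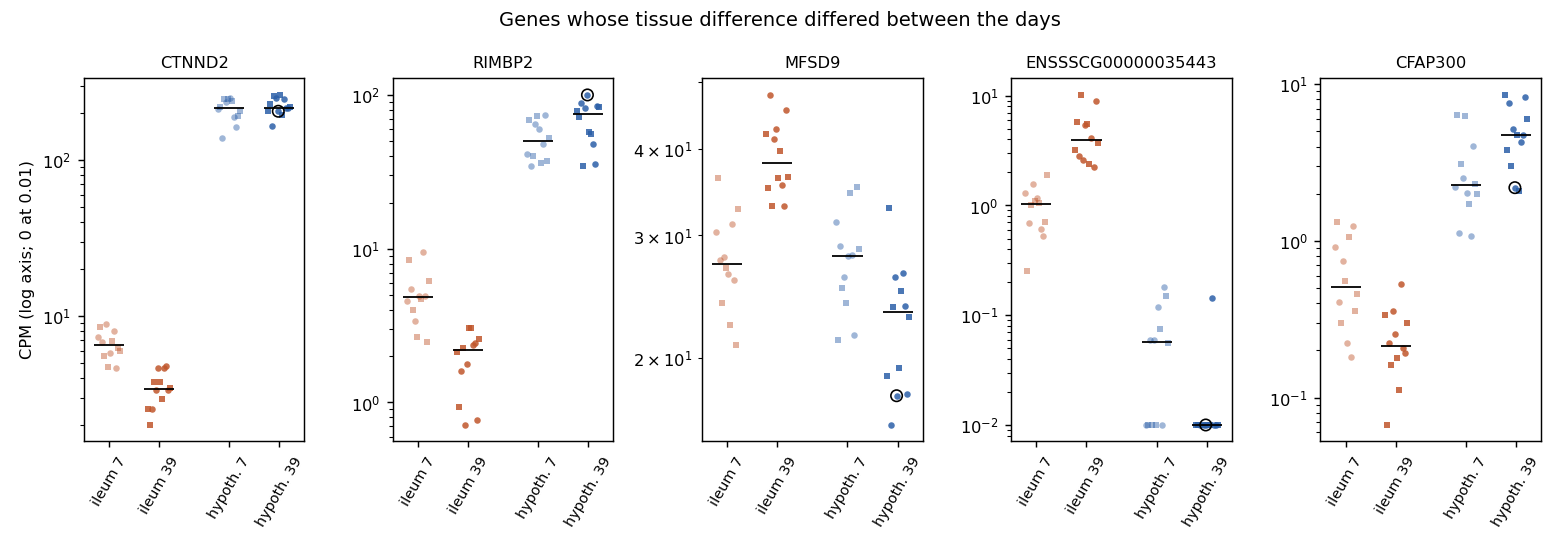
Levels (CPM) of the 5 genes whose tissue difference changed between days, in every library of the 4 sets, ileum orange and hypothalamus blue with day 7 paler. Circles are low growth, squares high growth, the bar is the median and the ring marks hypothalamus low growth replicate 3. CTNND2 and RIMBP2 are lower in ileum on day 39 than on day 7, the ileum values of CFAP300 overlap between the days, and MFSD9 separates the tissues only on day 39.

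Within ileum, 48 genes differed between the days (0.283%), 34 higher (0.2%) and 14 lower (0.0825%) on day 39, and 4 of the 5 genes above were among them. The count was 29 without ileum high growth replicate 2 and 29 without ileum low growth replicate 1. CD8A, the co-receptor of cytotoxic T cells, was at 20.4 to 36.6 CPM (median 32.1) on day 39 and 7.61 to 22 CPM (median 11.2) on day 7, a rise of 1.36 ± 0.23 (edgeR, adjusted p = 0.00064). CD3D, part of the antigen receptor complex, rose by 0.84 ± 0.16, TIGIT, an inhibitory receptor, by 1.16 ± 0.22 and ITGAE, the integrin that holds lymphocytes in the epithelium, by 0.95 ± 0.14. The fructokinase KHK rose by 1.01 ± 0.20 and the epoxide hydrolase EPHX2 by 1.62 ± 0.27. Each of these 6, singled out after their values were seen, passed in all 24 fits with a library left out. FABP6 rose by 1.17 ± 0.26, from 1512 to 3911 CPM in the median, but its adjusted p was 0.0767 without ileum high growth replicate 2 and 0.0678 without ileum low growth replicate 1. The tissue difference in these genes was not shown to change: the between-days adjusted p was 0.439 for CD8A and 0.967 for FABP6.

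Within hypothalamus, 24 genes differed between the days (0.141%), 21 higher (0.124%) and 3 lower (0.0177%) on day 39. The count was 9 without low growth replicate 3, and 57, 78, 127 and 52 without low growth replicates 2, 4, 5 and 6. HBB, a globin chain of red cells, was at 216 to 1763 CPM (median 556) on day 39 and 18.7 to 121 CPM (median 59.1) on day 7, a rise of 3.39 ± 0.37 (edgeR, adjusted p = 6.06e-08). ALAS2, the first enzyme of haem synthesis in red cells, rose by 3.18 ± 0.34. Both passed in all 24 fits with a library left out. Globin genes have close copies, so the estimate for HBB alone is uncertain. HBB also rose in ileum, by 1.98 ± 0.35, and its tissue difference was -1.33 ± 0.34 on day 7 and -2.74 ± 0.36 on day 39. The rise of ASMT became 0.71 (adjusted p = 0.820) and that of PCP2 0.12 (0.951) without low growth replicate 3, and that of CGA 0.13 (0.987) without low growth replicate 1.

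No gene of any list passed the test of change between days. The 2 largest shifts of a list median to the hypothalamic side were in lists in which a divergent library stood far from the others. The list of raphe, cortical and thalamic genes went from -0.10 on day 7 to -1.83 on day 39, and to -0.35 without low growth replicate 3, which held a summed 4765 CPM against 59.3 to 118.6 CPM in the other 11 libraries. Pituitary genes went from -0.35 to -2.26 with 5 genes tested, and to -2.38 without low growth replicate 3. Low growth replicate 1 held 3637 CPM of them against 1.8 to 17.0 CPM, of which CGA alone made up 3613 CPM. The median of the list without low growth replicate 1 was not computed, so its part in this shift was not tested. The next largest shift to that side was in red cell (erythroid) genes, from -0.82 to -2.22 with 6 genes tested. Without low growth replicate 3 their day 39 median was -2.25. Beyond 2-fold, 1 of the 6 was higher in hypothalamus on day 7 and 4 on day 39. Their summed level in low growth replicate 3, 340 CPM, lay within the 222.9 to 1801 CPM of the other 11 libraries. Hypothalamic neuropeptides went from -2.47 to -3.71, and 2 of 26 members had an unadjusted between-days p under 0.05. In collagen and matrix genes 16 of 40 members had such a p, in choroid plexus genes 6 of 12 and in iron and zinc genes 10 of 22, against 2268 of 16976 over all genes. Low growth replicate 3 held a summed 1205 CPM of the choroid plexus genes. The other 11 hypothalamus libraries held at most 198.1 CPM, the most in low growth replicate 1. The part of these libraries in the list counts of such p values was not tested. COL1A1, a fibrillar collagen, differed by 4.36 on day 7 and 2.0 on day 39, and by 3.33 on day 39 without low growth replicates 1 and 3, and its day 39 value did not pass beyond 2-fold with DESeq2 (1.95, adjusted p = 0.174). Brush border genes stayed at 7.41 and 7.84, B cell genes at 5.63 and 5.66 and cell division genes at 4.66 on both days.

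Whether the tissue difference depended on growth was tested as the tissue difference in low growth minus that in high growth libraries. On day 39, 8 genes passed (0.0471%), all below 0, at -9.18 to -4.52 with adjusted p from 0.0105 to 0.0494 (edgeR). These were GNB3, PAPLN, SLC17A7, TNNC2, MSX1, ISL2, SAAL1 and 1 gene without a symbol, ENSSSCG00000036741. In hypothalamus, each was highest in low growth replicate 1 or 3. SLC17A7, a vesicular glutamate carrier, was at 1467 CPM in low growth replicate 3 against 0.673 to 4.30 CPM in the 10 libraries other than it and low growth replicate 1, and ENSSSCG00000036741 at 189 CPM in low growth replicate 1 against 0 to 0.291 CPM. Without low growth replicate 3, no gene passed, and 263 had an unadjusted p under 0.05 against 489 with it. DESeq2 called 20 genes on the full set and limma's voom none. Leaving out any one of the 24 libraries moved the count by more than 1.5 times, to 0 to 5 genes for 20 of them and to 28, 28, 28 and 25 without hypothalamus low growth replicates 2, 4, 5 and 6.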

How the data were processed

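The samples were polyA RNA from ileal and hypothalamic tissue, sequenced as paired 150-base reads. The authors deposited estimated counts per gene, not scaled for library size, and Trim Galore, kallisto and DESeq2 and the build Sscrofa11.1 are named in the submitters' processing notes, which give no versions, and a deposited normalized table was not used. Estimated counts share reads among near-identical copies, and strand use is not given in the sources used here. Of 22924 identifiers, 14894 had a symbol, and 53.0% of values were not whole and were rounded.

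One edgeR 4.0.16 fit (R 4.3.3) held all 48 libraries in 8 groups of tissue, day and growth, with TMM scaling, the default expression filter (16976 genes kept) and robust quasi-likelihood dispersions (biological coefficient of variation 0.405). The tissue difference averages the growth groups with equal weight. Adjusted p values are Benjamini-Hochberg over all genes tested, at 0.05. The stricter test was glmTreat at 2-fold. The SE is the size of the log2 value, shrunk by a prior count of 2, divided by the root of F, and intervals come from unshrunk coefficients. A gene at 0 in all 12 libraries of a tissue was set against a floor of 3 counts over them, and with 1 to 3 counts a ratio with an exact Poisson 95% interval is given. Both cover counting error only. Scaling, filter, DESeq2 1.42.0, limma 3.58.1 (voom), the model and each left-out day 39 library were varied. The fit was also run on simulated counts. These held no divergent library and planted changes only in well-counted genes, so they do not bear on low counts or on such libraries.

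Members and gene lists were chosen with earlier results of these data known. Genes named are the 12 highest and 12 lowest differences with at least 10 CPM in the higher tissue, up to 4 members of each of 52 lists by p, the peptides and the pairs, the most alike genes and those that passed between days. Other list members are examples, and some genes that the rule names are not reported here. Genes of the growth test, of the comparisons of days within a tissue and of the divergent libraries were chosen after their values were seen. Several symbols of the lists had no match among the identifiers and were not analysed here.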

Additional observations from a re-analysis of the deposited data

Results flagged for a closer look

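For normally distributed values and genes not chosen by their values, the criterion used sets a sample apart in about 5% of groups of 6 libraries. It was applied to the genes whose tissue difference depended on growth.

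In hypothalamus, low growth replicate 3 stood apart for GNB3 at 922.6 CPM (next library 1.536), SLC17A7 at 1467 CPM (4.301), TNNC2 at 160.4 CPM (0.481), ISL2 at 346.4 CPM (6.513) and SAAL1 at 4038 CPM (19.27). Low growth replicate 1 stood apart for MSX1 at 111.03 CPM (38.28) and ENSSSCG00000036741 at 189.3 CPM (0.0673). Single high growth hypothalamus libraries stood apart at low levels, replicate 5 for SLC17A7 at 2.331 CPM (1.221), replicate 4 for TNNC2 at 0.4266 CPM (0.1163) and replicate 2 for ISL2 at 0.04937 CPM (0). In ileum, low growth replicate 2 stood apart for MSX1 at 2.243 CPM (1.032) and low growth replicate 4 for ISL2 at 1.959 CPM (1.172).

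The test of the change in tissue difference from day 7 to day 39 passed for CTNND2 at -0.99, RIMBP2 at -1.71, CFAP300 at -1.91, MFSD9 at 0.79 and ENSSSCG00000035443 at 2.56 log2 units. The tissue difference in low growth minus that in high growth on day 39 passed for GNB3 at -7.72, PAPLN at -4.52, SLC17A7 at -7.60, TNNC2 at -6.96, MSX1 at -4.73, ISL2 at -9.18, SAAL1 at -5.34 and ENSSSCG00000036741 at -7.53 log2 units, and for none of them without hypothalamus low growth replicate 3.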

How the results depend on the processing

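The counts of the tissue difference kept within 1.5 times the values given under every setting run, from 13353 to 13473 genes on day 39, and from 7575 to 7744 beyond 2-fold, when each day 39 library was left out. Of 282 named tissue differences, 32 changed their call under at least 1 setting, 22 of them with limma's voom. Scaling moved the ileum share of calls from 47.89% to between 45.77% and 49.03%. The smaller comparisons depended on the setting, and the cause was not tested. Genes whose tissue difference changed between days numbered 97 with DESeq2 and 30 with growth left out of the model, and 3 to 26 with a library left out. The comparison of days in ileum called 0.760% of genes tested with DESeq2, 0.577% with voom and 0.169% to 0.374% with a library left out. In hypothalamus it called 0.459% with DESeq2, 0.0648% with voom, 0.654% without growth, 0.0347% without low growth replicates 1 and 3 and 0.0526% to 0.742% with a library left out. The growth test gave 4 genes with upper-quartile scaling, 2 without the filter, 20 with DESeq2, 0 with voom, 0 in a fit of the day 39 libraries only, 0 without low growth replicates 1 and 3, and 0 to 28 with a library left out. Leaving out both replicates was chosen after the data were seen. It turned the sign of the tissue difference of GNB3 to 0.274 (range with a library left out -3.79 to 0.0777) and of the growth differences of GNB3 to 0.16 (-7.99 to -0.24), PAPLN to 0.0761 (-4.77 to -3.19), SAAL1 to 0.0537 (-5.59 to 0.00017) and ENSSSCG00000036741 to 0.35 (-7.85 to 0.39). No paired analysis was made because the labels tie no ileum library to a hypothalamus library of the same piglet. Library numbers run in parallel in both tissues, with the same order of low and high growth libraries. Whether they mark shared piglets is not stated, and a pairing by them was not tested. All tests treat the libraries as independent. At the depth of these libraries, a gene at 0 in all 12 libraries of a tissue allows up to 3 counts.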
